A study of Drosophila melanogaster with 8 samples.

Results

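The 5 genes described here are regulators that give somatic cells of the fly testis their identity: tj, eya, so, Six4 and Sox100B. They were chosen by symbol from the table of counts per gene, and all 5 were found among its 16018 genes. The choice used no measured value of this table's comparisons, although earlier results of these data were known when it was made.

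Somatic cyst cells are the support cells of the Drosophila testis. They arise from cyst stem cells beside the hub, enclose the dividing germ cells in pairs, and stay with them as they become spermatocytes and spermatids. In flies, traffic jam (tj) encodes a large Maf transcription factor of the basic leucine zipper type, found in the nuclei of cyst stem cells and early cyst cells and needed for the somatic gonad to form. Eyes absent (eya) encodes a protein phosphatase and transcription cofactor that does not bind DNA on its own. It acts through homeodomain proteins of the sine oculis family, and cyst cells that accompany differentiating germ cells carry it. Sine oculis (so) and Six4 encode such proteins. So works with Eya in cyst cell differentiation and in the eye, while Six4 works with Eya in the embryonic gonad and in mesoderm. Sox100B encodes the fly SoxE protein, related to mammalian Sox9, which marks a male-specific group of somatic gonad cells and is needed for the testis to take its form.

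Poly(A)+ RNA had been sequenced from dissociated testes of flies that expressed green fluorescent protein (GFP) from a UAS-GFP transgene under a GAL4 driver. A total of 4 groups of 2 libraries were made, and the labels call the libraries biological replicates. The tj-GAL4 sorted group held GFP-positive cells of tj-GAL4 x UAS-GFP testes, and the tj-GAL4 unsorted group held the whole suspension of that strain. The eya-GAL4 sorted and unsorted groups were the same for eya-GAL4 x UAS-GFP testes. All 4 groups thus carried a driver and the transgene, and none was a strain without them. Per the labels, tj-GAL4 marked early and eya-GAL4 mature cyst cells, and the sources used here do not give the age of the flies. Each driver is named after one of the 5 genes. A high level of tj in the tj-GAL4 sort, or of eya in the eya-GAL4 sort, is therefore not independent of how the cells were collected. Whether the drivers alter tj or eya themselves was not tested.

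Gene counts ran from 10771009 to 25344721 per library. Levels are given as CPM, counts scaled to the library's summed gene counts and its TMM factor, with SD over 2 libraries. A single library stood apart, tj-GAL4 unsorted replicate 2. Mitochondrial genes took 31.7% of its gene counts and 4.68% to 19.8% in the other libraries, and 4741 genes differed by more than 2-fold between it and replicate 1, against 759 to 1311 in the other groups. Results of the 5 genes that rest on it are given with and without it. For the other gene lists in the tj-GAL4 strain, calls or a median change are given without it as well. Both tj-GAL4 replicate 1 libraries carried 6-base indexes and the other 6 libraries carried 8-base indexes. Markers listed for early cyst cells (6 of 6 detected in every group) summed to 557 to 724 CPM in tj-GAL4 sorted, 492 to 599 in eya-GAL4 sorted, 180 to 362 in tj-GAL4 unsorted and 374 to 384 in eya-GAL4 unsorted libraries. In the tj-GAL4 strain 4 of the 6 were called higher (dome, ptc, piwi and fs(1)Yb) and 0 lower, where 8.98% and 2.38% of all tested genes were. There too dome rose most in CPM, from 67.1 ± 2.29 to 291 ± 58.0, and zfh1 and chinmo were not called. Of the same 6 in the eya-GAL4 strain, labelled as mature cyst cells, dome, piwi and fs(1)Yb were called higher and chinmo lower. Of all tested genes 28% were called higher and 20% lower in that comparison. The sum rose mainly through dome, from 74.6 ± 2.71 to 368 ± 52.4 CPM. Markers of mature cyst cells other than eya itself were not listed, so the label of that sort was not checked. In bulk RNA, fewer cells of a type and less RNA per cell cannot be told apart.

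The data show 4 of the 5 genes, tj, eya, so and Six4, higher in sorted than in unsorted cells of both strains, by 3.64-fold to 22.0-fold. Six4 and tj rose most. Sox100B was called higher in the eya-GAL4 sort and not in the tj-GAL4 sort, where it stayed near 1 CPM. Its changes on sorting were not shown to differ between the strains (adjusted p = 0.33 in edgeR). Among all 12570 genes tested, 8.55% were called higher in both comparisons, and 26.3% had all 4 sorted libraries above all 4 unsorted libraries, as these 4 genes did. Calls were made in edgeR's quasi-likelihood test, at an adjusted p under 0.05 with Benjamini-Hochberg adjustment over all tested genes, two-sided.

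**Figure D1:**
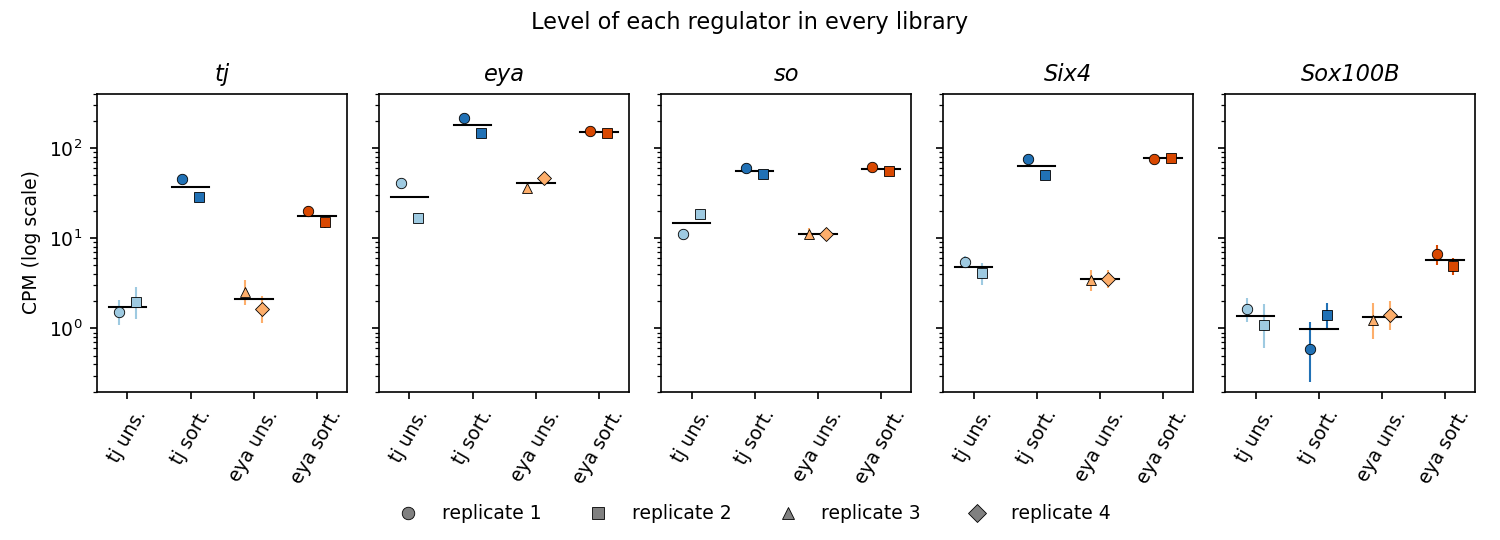
Level of each gene in CPM (log scale) in each of the 8 libraries, one panel per gene. Points are libraries, vertical lines are 95% Poisson intervals of the counts (counting error only) and horizontal bars are group means of 2 libraries. The sorted points of tj, eya, so and Six4 lie above all unsorted points, and Sox100B is high only in the eya-GAL4 sorted pair, at 6.62 and 4.91 CPM.

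The Maf gene tj (FBgn0000964) lies on 2L, positions 19464267 to 19467758 of dm6, on the plus strand, in a single exon. In the tj-GAL4 strain, replicates 1 and 2 held 41 and 25 of its reads before sorting and 607 and 747 after it. In the eya-GAL4 strain, replicates 3 and 4 of the unsorted suspension held 41 and 37 reads, and replicates 1 and 2 of the sorted cells held 193 and 246. As levels, in that order, these were 1.52 and 1.96, then 45.4 and 28.9, then 2.55 and 1.65, then 20.0 and 14.9 CPM. Both sorted pairs were high, the tj-GAL4 pair lay above the eya-GAL4 pair, and the 2 unsorted pairs overlapped. The gene with the lowest level of the 4 that rose was thus counted from at most 41 reads before sorting and from at least 193 after it. In the tj-GAL4 strain tj rose by a log2 fold change of 4.42 ± 0.44 (SE; 95% interval 3.42 to 5.42), 21.4-fold, with an adjusted p of 0.0014 in edgeR. This was the 49th highest log2 fold change of 12570. In the eya-GAL4 strain tj rose by 3.06 ± 0.41 (2.11 to 4.0), 8.32-fold, with an adjusted p of 0.0016 in edgeR, 941st highest of 12570. Neither call was lost with any 1 of the 8 libraries left out, where the adjusted p from edgeR reached at most 0.016 and 0.03.

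The cofactor gene eya (FBgn0000320) lies on 2L, positions 6527447 to 6546976, on the minus strand, with 3 annotated transcripts. It had 1103 and 213 reads in tj-GAL4 unsorted, 2826 and 3789 in tj-GAL4 sorted, 576 and 1040 in eya-GAL4 unsorted and 1479 and 2401 in eya-GAL4 sorted libraries. Its levels were 41.0 and 16.7, 212 and 147, 35.8 and 46.2, and 153 and 146 CPM in the same order. All sorted libraries were high, between 146 and 212 CPM, and the 2 sorted pairs overlapped. The unsorted pairs overlapped too, and the low value of 16.7 CPM was that of the library that stood apart. Of the 5 genes, eya had the highest mean level per transcript length in every group. In tj-GAL4 unsorted replicate 2, however, so (6.59 CPM per kilobase) lay above eya (5.04). The level of eya rose by a log2 fold change of 2.63 ± 0.46 (1.58 to 3.68) in the tj-GAL4 strain, with an adjusted p of 0.011 in edgeR. In the eya-GAL4 strain it rose by 1.86 ± 0.45 (0.84 to 2.88), 3.64-fold, with an adjusted p of 0.013 in edgeR, the smallest rise of the 5 genes there. The first call did not survive leaving out tj-GAL4 sorted replicate 1 (adjusted p = 0.11 in edgeR). The second was lost without each of the 4 eya-GAL4 libraries (adjusted p 0.061 to 0.085), while the log2 fold change stayed between 1.68 and 2.04 without them.

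The homeodomain gene so (FBgn0003460) lies on 2R, positions 7419350 to 7434872, on the plus strand, with 7 exons. Its reads numbered 303 and 234 in tj-GAL4 unsorted, 807 and 1333 in tj-GAL4 sorted, 178 and 248 in eya-GAL4 unsorted and 591 and 925 in eya-GAL4 sorted libraries. In CPM these were 11.3 and 18.4, 60.4 and 51.6, 11.07 and 11.03, and 61.1 and 56.1. The 4 sorted libraries lay together between 51.6 and 61.1 CPM, with the pairs overlapping. Before sorting, only tj-GAL4 unsorted replicate 2, the library that stood apart, lay clearly above the eya-GAL4 unsorted pair. The 95% Poisson interval of tj-GAL4 unsorted replicate 1 included both levels of that pair. The level of so rose by a log2 fold change of 1.92 ± 0.33 (1.17 to 2.68) in the tj-GAL4 strain. The adjusted p was 0.0098 in edgeR, and this rise was the smallest of the 4 there. In the eya-GAL4 strain it rose by 2.41 ± 0.34 (1.64 to 3.18), 5.30-fold, with an adjusted p of 0.0018 in edgeR. With tj-GAL4 sorted replicate 1 left out the tj-GAL4 call was lost (adjusted p = 0.08 in edgeR), and the eya-GAL4 call was not lost without any 1 library. A total of 4 genes lie on the opposite strand within introns of so, and none shares an exonic base with it. The largest of them by reads, CG11145, had 310 to 1657 reads, not scaled to depth. The lowest number was in eya-GAL4 sorted replicate 1, the library with the fewest gene counts. The smallest, lncRNA:CR44202, had 0 to 22 reads and most in eya-GAL4 sorted cells, at 8 and 22. Whether reads of these genes were counted to so was not tested.

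The second homeodomain gene, Six4 (FBgn0027364), lies on 3L, positions 20788886 to 20792777, on the minus strand. It had 147 and 52 reads in tj-GAL4 unsorted, 1016 and 1295 in tj-GAL4 sorted, 55 and 80 in eya-GAL4 unsorted and 731 and 1286 in eya-GAL4 sorted libraries. Its levels were 5.47 and 4.08, 76.0 and 50.1, 3.42 and 3.56, and 75.6 and 78.0 CPM. All sorted libraries were at least 50.1 CPM and all unsorted libraries at most 5.47 CPM, and the 2 sorted pairs overlapped. In the eya-GAL4 strain its levels were 76.8 ± 1.71 CPM in sorted and 3.49 ± 0.0953 CPM in unsorted cells, a gap far larger than either spread. It rose by a log2 fold change of 4.46 ± 0.37 (3.61 to 5.30), 22.0-fold, in the eya-GAL4 strain, with an adjusted p of 0.00031 in edgeR, 270th highest of 12570. In the tj-GAL4 strain it rose by 3.71 ± 0.36 (2.90 to 4.53), 13.1-fold, with an adjusted p of 0.0014 in edgeR, 154th highest. Neither call was lost without any 1 library (adjusted p at most 0.014 in edgeR), nor under DESeq2 or under limma on the deposited RPM. An antisense RNA gene overlaps part of the Six4 locus without sharing an exonic base, and the sources used here do not give the strand setting of the counting.

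The SoxE gene Sox100B (FBgn0024288) lies on 3R, positions 31065253 to 31083407, on the plus strand, with 3 exons. It had 44 and 14 reads in tj-GAL4 unsorted, 8 and 36 in tj-GAL4 sorted, 20 and 32 in eya-GAL4 unsorted and 64 and 81 in eya-GAL4 sorted libraries. In CPM these were 1.64 and 1.10, 0.599 and 1.39, 1.24 and 1.42, and 6.62 and 4.91. The eya-GAL4 sorted pair stood above the other 6 libraries, which overlapped with one another. At this depth the counts were imprecise, with a 95% Poisson interval of 3.45 to 15.8 around the 8 reads and of 49.3 to 81.7 around the 64 reads. Sox100B rose by a log2 fold change of 2.10 ± 0.54 (0.87 to 3.33), 4.29-fold, in the eya-GAL4 strain, with an adjusted p of 0.016 in edgeR. Its log2 fold change in the tj-GAL4 strain was -0.43 ± 0.54, with a 95% interval of -1.67 to 0.80 and an adjusted p of 0.58 in edgeR. The eya-GAL4 call was lost without each of the 4 eya-GAL4 libraries (adjusted p 0.059 to 0.094 in edgeR), and the log2 fold change stayed between 1.88 and 2.31 without them.

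Counted together, 4 of the 5 genes were called higher and 0 lower in the tj-GAL4 comparison, where 8.98% of all tested genes were called higher and 2.38% lower. The median log2 fold change of the 5 genes was 2.63, against -0.08 over all tested genes. In the eya-GAL4 comparison 5 of 5 were called higher, where 28% of all tested genes were called higher and 20% lower (48% in all), with a median of 2.41 against -0.09. Without tj-GAL4 unsorted replicate 2, the library that stood apart, the log2 fold changes in the tj-GAL4 strain were 4.58 for tj, 2.10 for eya, 2.29 for so, 3.50 for Six4 and -0.68 for Sox100B, and the same 4 genes were called (adjusted p at most 0.0013 in edgeR). Without replicate 1 of that group they were 4.23, 3.41, 1.60, 3.94 and -0.08, and the same 4 genes were called. Within the 6-base index pair of the tj-GAL4 strain, the log2 ratio of sorted to unsorted CPM was 4.80 for tj, 2.36 for eya, 2.41 for so, 3.77 for Six4 and -1.30 for Sox100B. Within the 8-base pair it was 3.81, 3.12, 1.48, 3.58 and 0.31. The 4 rises thus appeared at both index lengths, and Sox100B had opposite signs in the 2 pairs. Fitted on the 2 tj-GAL4 groups alone, only tj and Six4 were called there (adjusted p = 0.034 each in edgeR). On the deposited RPM, where the median of all genes moved by -0.65 in the eya-GAL4 comparison, limma on log2(RPM + 1) called only Six4 there (adjusted p = 0.0015).

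**Figure D2:**
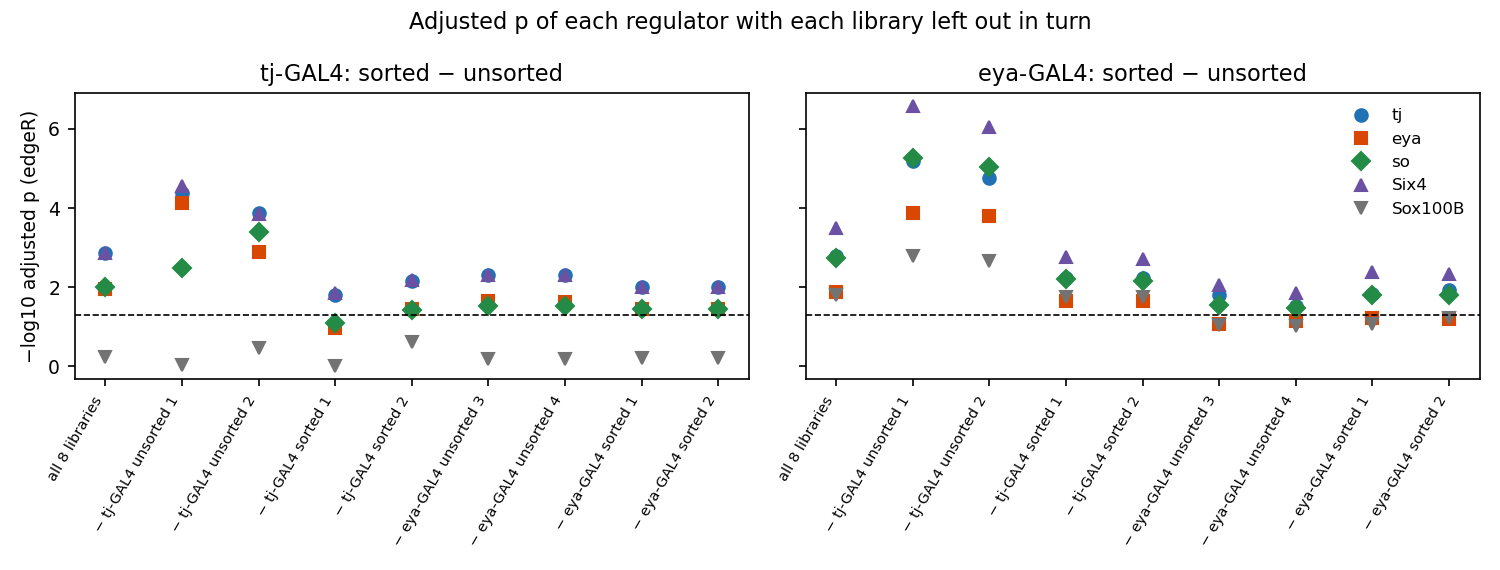
Adjusted p of each gene from edgeR (as -log10) with all 8 libraries and with each library left out in turn, for sorted against unsorted cells of each strain. The dashed line marks an adjusted p of 0.05. In both panels the points of tj and Six4 stay above the line in every setting, and the points of eya fall under it without tj-GAL4 sorted replicate 1 (left) and without each eya-GAL4 library (right).

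The comparison of both sorted groups asks how the genes differ between cells marked by tj-GAL4 and cells marked by eya-GAL4. None of the 5 was called in either direction, where 0.0239% of all tested genes were called higher in tj-GAL4 and 0.0875% lower. At an unadjusted p under 0.05 edgeR gave 2 of the 5, tj and Sox100B, and DESeq2 called 1, Sox100B. The level of tj was 37.2 ± 11.7 CPM in tj-GAL4 sorted and 17.4 ± 3.56 CPM in eya-GAL4 sorted cells, a log2 difference of 1.09 ± 0.38 (0.23 to 1.95) with an adjusted p of 0.42 in edgeR. Its pairs did not overlap, as for 29.3% of all tested genes with tj-GAL4 on the high side. The level of Sox100B was 0.996 ± 0.562 against 5.76 ± 1.21 CPM, a log2 difference of -2.48 ± 0.55 (-3.73 to -1.23), place 12472 of 12570 from the highest, with an adjusted p of 0.19 in edgeR. Its pairs did not overlap either, as for 27.6% of tested genes with tj-GAL4 on the low side. The call of Sox100B depended on the fit, as its adjusted p was 0.0042 in DESeq2, 3.2e-05 in edgeR on the 2 sorted groups alone, and 0.011 and 0.014 in edgeR without tj-GAL4 unsorted replicate 1 or 2. That of tj was 0.014 in edgeR on the 2 sorted groups alone, and 0.38 in DESeq2.

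For eya, so and Six4 the 2 sorted groups overlapped. The log2 difference was 0.26 ± 0.43 for eya (-0.73 to 1.25), -0.07 ± 0.32 for so (-0.79 to 0.66) and -0.28 ± 0.32 for Six4 (-1.01 to 0.44). These intervals reach 1.25 and -1.01 on the log2 scale, so they do not show that the levels were alike. The signs of so and Six4 turned under limma on log2(RPM + 1), to 0.43 and 0.20, where the median of all genes moved by 0.46.

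**Figure D3:**
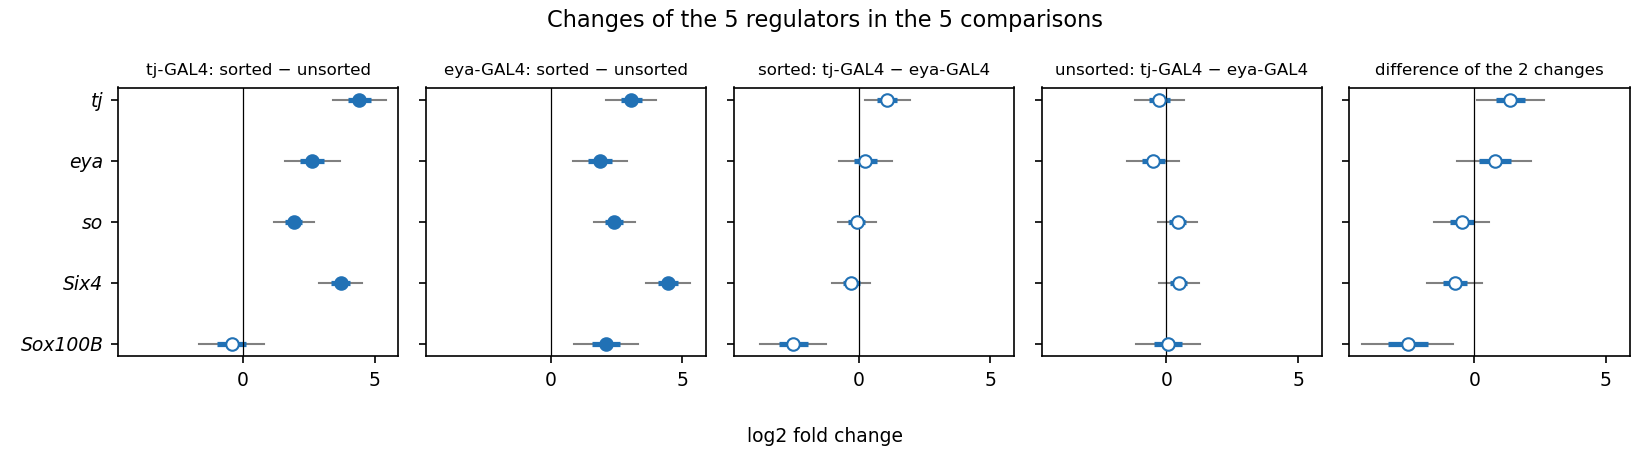
Log2 fold changes of the 5 genes in the 5 comparisons, from edgeR on the counts of all 4 groups. Thick bars are SE, thin bars are 95% intervals, and filled points passed an adjusted p of 0.05. Filled points appear only in the 2 comparisons of sorted with unsorted cells, 4 in the tj-GAL4 strain and 5 in the eya-GAL4 strain, and the point of Sox100B lies left of 0 at -2.48 between the sorted groups.

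Whether the changes on sorting differed between the strains was tested as an interaction. Of the 5 genes, 0 were called, as were 0 of all 12570 tested (0%), with 2 of the 5 at an unadjusted p under 0.05 in edgeR. DESeq2 called 313 genes of all, none of them among the 5. The difference of the 2 changes was 1.36 ± 0.55 (0.10 to 2.63) for tj, larger in the tj-GAL4 strain, and -2.53 ± 0.76 (-4.26 to -0.80) for Sox100B, larger in the eya-GAL4 strain, each with an adjusted p of 0.33 in edgeR. The rise of Sox100B in one strain and not in the other was therefore not shown to differ between strains by this test. For eya the difference was 0.77 ± 0.61, for so -0.48 ± 0.45 and for Six4 -0.74 ± 0.46, with adjusted p of 0.42 to 0.58 in edgeR. For eya the difference rested on the library that stood apart. Without that library, tj-GAL4 unsorted replicate 2, it was 0.28 (adjusted p = 0.8 in edgeR), and without replicate 1, where that library alone stands for the group, it was 1.56 (adjusted p = 0.023 in edgeR). Without replicate 2 the difference was 1.56 for tj, -0.08 for so, -0.91 for Six4 and -2.74 for Sox100B, with adjusted p of 0.14 to 0.94 in edgeR.

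The unsorted suspensions give the level before sorting. None of the 5 genes was called between the strains there, where 0.0716% of tested genes were called (0.0477% lower in tj-GAL4), and none had an unadjusted p under 0.05 in edgeR or a call in DESeq2. The log2 difference, tj-GAL4 minus eya-GAL4, was -0.27 ± 0.41 for tj, -0.50 ± 0.44 for eya, 0.42 ± 0.32 for so, 0.46 ± 0.33 for Six4 and 0.05 ± 0.53 for Sox100B, with adjusted p of 0.64 to 0.98 in edgeR. Without tj-GAL4 unsorted replicate 2 it was -0.50, -0.05, -0.03, 0.59 and 0.24 in the same order, with none called. Without replicate 1, where replicate 2 alone stands for the group, eya was at -1.29 and was called lower in the tj-GAL4 strain (adjusted p = 0.021 in edgeR). These comparisons share libraries with those above, so their values are not independent of them.

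Levels of different genes were compared per transcript length, as CPM per kilobase of the deposited gene length. In eya-GAL4 sorted cells eya (44.95) and Six4 (41.5) were nearly level, followed by so (21.0), tj (4.99) and Sox100B (2.81). In tj-GAL4 sorted cells the order was eya (53.9), Six4 (34.1), so (20.1), tj (10.6) and Sox100B (0.486). No neighbours in these 2 orders overlapped between their libraries. Before sorting the order was different. In eya-GAL4 unsorted cells eya (12.4) was followed by so (3.97), Six4 (1.89), Sox100B (0.651) and tj (0.601), with the last pair overlapping, and in tj-GAL4 unsorted cells by so (5.32), Six4 (2.58), Sox100B (0.667) and tj (0.499), with eya and so overlapping as well as the last pair. Six4 thus stood below so in each of the 4 unsorted libraries and above it in each of the 4 sorted libraries.

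Ratios within a library do not depend on its depth or scaling. The level of Six4 per length was 1.90 and 1.46 times that of so in tj-GAL4 sorted and 1.86 and 2.10 times in eya-GAL4 sorted libraries. It was 0.731 and 0.335 times that of so in tj-GAL4 unsorted and 0.466 and 0.486 times in eya-GAL4 unsorted libraries. The balance of the 2 homeodomain partners of Eya was therefore on the side of Six4 in sorted cells, without overlap. Against eya, Six4 reached 0.646 and 0.614 in tj-GAL4 sorted and 0.888 and 0.962 in eya-GAL4 sorted libraries. The unsorted libraries of tj-GAL4 had 0.239 and 0.438 and those of eya-GAL4 0.172 and 0.138. The ratio was thus highest in eya-GAL4 sorted cells, next in tj-GAL4 sorted cells and lower in every unsorted library.

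The ratio of tj to eya was 0.204 and 0.187 in tj-GAL4 sorted and 0.124 and 0.0974 in eya-GAL4 sorted libraries, 0.0353 and 0.112 in tj-GAL4 unsorted and 0.0677 and 0.0338 in eya-GAL4 unsorted libraries. It was highest in the tj-GAL4 sort, in both replicates. The ratio of tj to Six4 was 0.316 and 0.305 in the tj-GAL4 sort and 0.140 and 0.101 in the eya-GAL4 sort, with 0.148 to 0.395 over the 4 unsorted libraries, which overlapped with the tj-GAL4 sort. The ratio of so to eya moved less, from 0.340 to 0.476 over the 4 sorted libraries and 0.284 to 0.368 in 3 of the unsorted ones. It was 1.31 in tj-GAL4 unsorted replicate 2, the library that stood apart. With 2 libraries against 2, an exact permutation test cannot give a two-sided p below 0.333, so these ratios are given as values without a test.

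**Figure D4:**
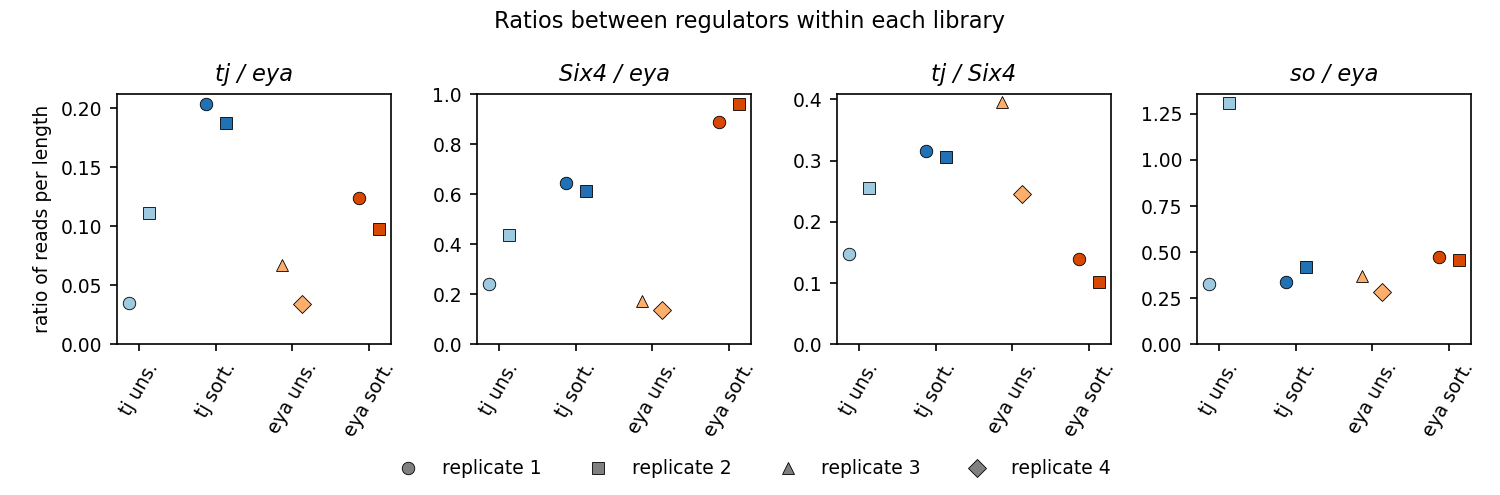
Ratios of reads per transcript length between pairs of the 5 genes in each library, one panel per pair, with each vertical axis starting at 0. Points are libraries. The tj to eya and tj to Six4 ratios of the tj-GAL4 sorted pair lie above those of the eya-GAL4 sorted pair, the Six4 to eya ratios lie below, and the so to eya ratio of tj-GAL4 unsorted replicate 2 stands alone at 1.31.

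For each of the 5 genes, the genes of most like pattern were found by the mean absolute difference of log2 levels over the 8 libraries, each gene centred on its own mean, among other tested genes, leaving out symbols made of CG or CR and digits. For tj these were otk (0.20), an off-track receptor gene, its paralog otk2 (0.33), and DIP-eta (0.33), a cell surface immunoglobulin gene. Reads of otk ran from 44.3 to 62.8 CPM in tj-GAL4 sorted, 28.1 to 42.9 in eya-GAL4 sorted and 2.71 to 4.95 CPM in unsorted libraries. For eya they were fs(1)Yb (0.15), a piRNA pathway gene of somatic gonad cells, the cadherin gene Cad74A (0.18) and the kinase gene Dyrk2 (0.22). For so they were Pat1 (0.07), l(2)k01209 (0.09) and RnrL (0.10), which encodes the large subunit of ribonucleotide reductase. For Six4 they were Esp (0.14), boss (0.16), which encodes the ligand of the Sevenless receptor in the eye, and sona (0.18), a secreted metalloprotease gene. For Sox100B the nearest were further away, at 0.38 for Cpr76Bb, 0.39 for DIP-theta and 0.42 for ppk28, all read at under 5 CPM. The likeness is a description over 8 libraries that share their depth and sorting.

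Among the 5 genes themselves, eya and so were nearest (0.43) and tj and Six4 next (0.57). The distance was 0.74 between tj and so, 0.76 between tj and eya, 0.89 between eya and Six4 and 0.94 between so and Six4. Sox100B was 0.98 to 1.64 from the other 4. Six4 was thus nearer to the Maf gene tj than to its own cofactor or to so. Many other genes were nearer still, as tj was 346th nearest to Six4 among 12569 other tested genes and Six4 127th nearest to tj. Likewise, so was 205th nearest to eya and eya 1363rd nearest to so. None of the 5 was among the 3 nearest genes of another.

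Other genes of the same pathways and families were taken from 5 lists, chosen with earlier results of these data known. The retinal determination network, in which eya and so act in the eye, gave 14 further genes, of which 11 passed the filter on low counts. In the tj-GAL4 comparison 1 was called higher, tsh, and 0 lower, where 8.98% and 2.38% of all tested genes were, with a median log2 fold change of -0.55. In the eya-GAL4 comparison 1 was called higher and 7 lower, where 28% and 20% of all tested genes were, with a median of -1.35 against -0.09 over all tested genes. Without tj-GAL4 unsorted replicate 2, 25% of all tested genes were called higher and 10.8% lower in the tj-GAL4 comparison, and of this list 2 were called higher (exd and tsh) and 3 lower (dac, Optix and tio). In the eya-GAL4 comparison, with all 8 libraries, the gene that rose was exd, a homeodomain cofactor of Hox proteins (2.34 ± 0.44, adjusted p = 0.0055 in edgeR). Among the 7 that fell were dac, a nuclear cofactor that acts with Eya and So in the eye (-2.25 ± 0.52), the zinc finger gene tio (-1.87 ± 0.43) and toe, a Pax gene (-2.40 ± 0.58), with adjusted p of 0.011 to 0.013 in edgeR. Optix, the remaining fly gene of the family of so and Six4, also fell there, by 1.35 on the log2 scale with an SE of 0.34 (adjusted p = 0.015 in edgeR), from 61.9 ± 8.13 to 24.3 ± 1.49 CPM. In the tj-GAL4 strain Optix was at 47.2 ± 15.5 before and 32.3 ± 6.13 CPM after sorting (adjusted p = 0.28 in edgeR), and without tj-GAL4 unsorted replicate 2 it fell by 0.87 on the log2 scale (adjusted p = 0.034 in edgeR). The direction of Optix was thus opposite to that of so and Six4 in the eya-GAL4 sort, and its call was lost without each of the 4 eya-GAL4 libraries.

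Of 7 other Sox genes, 6 passed the filter, with 2 called higher in the tj-GAL4 comparison and 2 higher and 1 lower in the eya-GAL4 comparison. In the tj-GAL4 comparison 8.98% of all tested genes were called higher and 2.38% lower. The share called in the eya-GAL4 comparison, 3 of 6, was near the 48% of all tested genes. Without tj-GAL4 unsorted replicate 2 the median log2 fold change of the 6 in the tj-GAL4 comparison was 1.02, against -0.01 over all tested genes. Sox14, an ecdysone-responsive Sox gene, rose in both, by 2.17 ± 0.43 in the tj-GAL4 strain (adjusted p = 0.016 in edgeR) and by 2.80 ± 0.44 in the eya-GAL4 strain (adjusted p = 0.0027). It reached 95.4 ± 11.8 CPM in tj-GAL4 sorted and 104 ± 15.1 CPM in eya-GAL4 sorted cells. SoxN was called higher in the tj-GAL4 strain (2.77 ± 0.72, adjusted p = 0.044 in edgeR), at 0.463 ± 0.234 CPM before and 3.08 ± 2.11 CPM after sorting. Sox21a was called higher in the eya-GAL4 strain (3.28 ± 0.76, adjusted p = 0.011 in edgeR), at 0.378 ± 0.346 CPM before and 3.55 ± 0.637 CPM after it. In the other strain of each, SoxN (1.37 ± 0.64) and Sox21a (2.11 ± 0.77) were not called. D (Dichaete) fell by 2.48 on the log2 scale in the eya-GAL4 strain (adjusted p = 0.0073 in edgeR). Its log2 fold change in the tj-GAL4 strain was -0.62 ± 0.48 with all 8 libraries and -1.23 without tj-GAL4 unsorted replicate 2. The interaction called none of these.

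Among 6 other basic leucine zipper genes, including maf-S, the small Maf gene, 0 were called in the tj-GAL4 comparison and 1 in the eya-GAL4 comparison. That one was crc, the fly ATF4 gene (1.08 ± 0.37, adjusted p = 0.04 in edgeR), which was also the single call in the tj-GAL4 comparison without tj-GAL4 unsorted replicate 2 (0.98 ± 0.36). Of all tested genes 11.4% and 48% were called in these comparisons. The level of maf-S was 56.9 ± 25.8 and 53.4 ± 6.34 CPM in tj-GAL4 unsorted and sorted, and 26.4 ± 0.535 and 43.4 ± 9.95 CPM in eya-GAL4 unsorted and sorted cells. The log2 fold changes of these 6 genes lay between -1.12 and 1.08 in the 2 comparisons.

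Of 14 other regulators of the somatic gonad, 13 passed the filter. In the tj-GAL4 comparison 1 was called higher and 1 lower, and in the eya-GAL4 comparison 5 were called higher and 4 lower, against 8.98% and 2.38%, and 28% and 20%, of all tested genes. Without tj-GAL4 unsorted replicate 2 the median log2 fold change of these genes in the tj-GAL4 comparison was 0.14, against -0.01 over all tested genes. Stat92E, the transcription factor of the JAK-STAT pathway that maintains cyst stem cells, rose in both, by 1.87 ± 0.43 (adjusted p = 0.029 in edgeR) and 2.35 ± 0.44 (adjusted p = 0.0051). The Hox gene Abd-B fell in both, by 2.57 and 1.70 on the log2 scale (adjusted p = 0.027 and 0.039 in edgeR). In the eya-GAL4 strain the Hox gene abd-A (2.22 ± 0.45) and the GATA factor gene srp (1.44 ± 0.31) rose, and lbe, a ladybird homeobox gene, fell by 2.66 on the log2 scale, with adjusted p of 0.0067 to 0.009 in edgeR. They were not called in the tj-GAL4 strain but moved the same way there. The log2 fold changes were 1.21 ± 0.43 for abd-A, 1.12 ± 0.30 for srp and -0.47 ± 0.52 for lbe. Without tj-GAL4 unsorted replicate 2 they were 1.91, 1.25 and -1.02 in the same order. The zinc finger genes zfh1 and chinmo, both needed in cyst stem cells, are also in the early cyst cell markers. The level of zfh1 was at 50.8 ± 12.8 CPM in tj-GAL4 sorted and 17.3 ± 1.45 CPM in eya-GAL4 sorted cells and was called in neither comparison (adjusted p = 0.31 and 0.11 in edgeR). The gene chinmo fell in the eya-GAL4 strain by 1.89 on the log2 scale (adjusted p = 0.018 in edgeR) and stood at 142 ± 30.0 and 63.9 ± 1.91 CPM in tj-GAL4 and eya-GAL4 sorted cells.

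The last list held genes whose levels are reported to depend on tj in fly gonads. It does not state whether tj raises or lowers each gene, and no effect of tj on them was tested. It held 4 genes, with piwi also an early cyst cell marker, and all 4 were tested. Of these, 3 rose in both comparisons, as did 8.55% of all tested genes, and the same 3 were called in the tj-GAL4 comparison without tj-GAL4 unsorted replicate 2. The Argonaute gene piwi, which silences transposons, rose by 3.07 ± 0.35 in the tj-GAL4 strain (adjusted p = 0.0021 in edgeR) and by 2.19 ± 0.34 in the eya-GAL4 strain (adjusted p = 0.0027). Nrt, a cell adhesion gene, rose by 2.23 ± 0.35 and 1.71 ± 0.34, and shg, the fly E-cadherin gene, by 2.13 ± 0.39 and 1.90 ± 0.39, with adjusted p of 0.0061 to 0.013 in edgeR. Fas3, an adhesion gene that is also a hub marker, was called in neither (-0.48 and 1.56, adjusted p = 0.62 and 0.082 in edgeR). The calls of piwi were not lost without any 1 library in either strain. The calls of Nrt and shg in the tj-GAL4 strain were lost without tj-GAL4 sorted replicate 1, as were those of eya and so. Among the calls of list genes named here, those of piwi in both strains and of Sox14 in the eya-GAL4 strain were kept without each library in turn. Each other call was lost without at least 1 library, those of exd and Stat92E in the eya-GAL4 strain without eya-GAL4 unsorted replicate 4 alone and that of D without eya-GAL4 sorted replicate 2 alone. In all 5 lists, none was called between the sorted groups, between the unsorted groups or in the interaction.

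**Figure D5:**
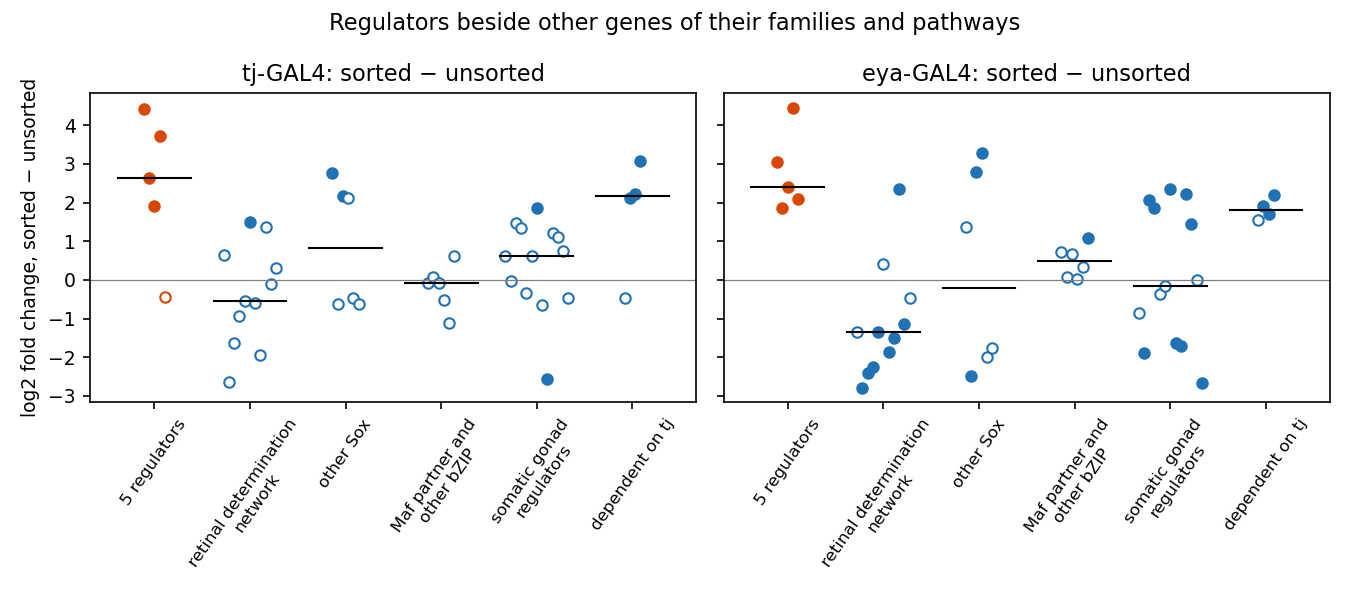
Log2 fold changes of sorted against unsorted cells for the 5 regulators (orange) and the tested genes of the 5 lists (blue), one panel per strain, from edgeR. Filled points passed an adjusted p of 0.05 and black bars are medians. The medians of the 5 regulators stand at 2.63 and 2.41, and that of the retinal determination network stands at -0.55 and -1.35.

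Markers of other cell types moved with sorting as well. Summed over 10 of 10 sheath muscle markers, the level was 1099 to 1726 CPM in the unsorted and 404 to 627 CPM in the sorted libraries. Spermatid markers (6 of 6) summed to 649 to 911 in unsorted and 235 to 493 CPM in sorted libraries, and spermatocyte markers (9 of 9) to 210 to 755 and 144 to 245 CPM. The muscle and spermatid sums were thus lower in every sorted library but not at 0. The spermatocyte sum was lower with the exception of tj-GAL4 unsorted replicate 2, which gave the value of 210. Of the 10 muscle markers, 9 were called lower in the tj-GAL4 sort and 3 (bt, sls and Mhc) in the eya-GAL4 sort, with 0 higher. Of all tested genes 2.38% and 20% were called lower in these comparisons, so the share in the eya-GAL4 sort was not far from that of all genes. In tj-GAL4 sorted cells sls, which was not called, held 337 ± 23.8 CPM of the sum. In the eya-GAL4 sort Mlc1, Mlc2, up and Mp20 changed by only -0.33 to -0.03 on the log2 scale. Hub markers (4 of 4) summed to 166 to 242 CPM in tj-GAL4 sorted, 163 to 191 in eya-GAL4 sorted, 86.0 to 185 in tj-GAL4 unsorted and 79.6 to 97.1 CPM in eya-GAL4 unsorted libraries. Its defining gene upd1 was called lower in the eya-GAL4 sort (16.8 ± 2.90 to 6.05 ± 0.501 CPM) and hh higher in both sorts. Early germline markers (5 of 5) summed to 50.5 to 118 CPM in sorted and 72.2 to 191 CPM in unsorted libraries. Accessory gland markers (4 of 4) summed to 344 to 509 and 640 to 2628 CPM, neuron markers (3 of 3) to 82.3 to 141 and 52.4 to 98.2 CPM, and fat body markers (3 of 3) to 3.72 to 5.42 and 4.94 to 242 CPM in the same order. Of these, the accessory gland markers alone were apart without overlap. The neuron markers moved apart in the eya-GAL4 sort, where nSyb was called higher (2.83 ± 0.666 to 74.9 ± 18.2 CPM) and brp lower (86.2 ± 5.21 to 16.3 ± 5.15 CPM). In the tj-GAL4 sort nSyb was called higher as well, and 0 of the 3 were called lower. Hemocyte markers (4 of 4) reached 226 to 243 CPM in eya-GAL4 sorted libraries and 64.0 to 167 CPM in the others. This sum was carried by crq, at 27.9 ± 6.13 CPM before and 220 ± 8.45 CPM after the eya-GAL4 sort, while the hemocyte gene Hml was at 48.1 ± 13.97 and 12.4 ± 4.17 CPM (adjusted p = 0.15 in edgeR) and He averaged 0.143 CPM after that sort. Pigment cells of the testis are known to express Sox100B. Their markers (5 listed) summed to 18.2 to 23.3 CPM in eya-GAL4 unsorted and 278 to 291 CPM in eya-GAL4 sorted libraries, where Sox100B also rose, with v at 0 in the latter. Nearly all of this sum was w, a gene that is also a common marker of transgenes, at 18.2 ± 4.19 CPM before and 277 ± 11.4 CPM after sorting. Of the others, st was called higher (1.69 ± 0.251 to 5.69 ± 1.61 CPM), bw was not called, and cn was at 0.289 and 0.586 CPM. The 5 markers summed to 138 to 398 CPM in tj-GAL4 unsorted and 200 to 201 CPM in tj-GAL4 sorted libraries, where Sox100B was not called. The part of these cells in the changes of the 5 genes was not tested.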

How the data were processed

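The authors deposited raw counts per gene, made with HTSeq per the file headers, together with RPM (reads scaled to a library total) and gene lengths. Per the submitters' processing notes the build was dm6 and the tools were Bowtie 1.2.2, FastQC, DESeq2 and HTSeq. The sources used here do not give the annotation release, the strand setting or the handling of reads with several matches. A total of 20 further value columns were not used. Gene counts made up 28.0% to 71.6% of the total behind RPM.

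The counts were tested with edgeR 4.0.16 in R 4.3.3 (quasi-likelihood, TMM), on 12570 genes with a CPM of at least 1 in at least 2 libraries, with all 4 groups in a single fit (4 residual degrees of freedom). All 5 regulators passed this filter. The code of the fit was run on simulated data with the same spread for all genes, changes only in well counted genes and no library that stood apart. That run does not show how calls hold at low counts or with such a library. SE was obtained by dividing the size of the log2 fold change by the root of F. Alternatives used DESeq2 1.42.0, limma 3.58.1 on log2(RPM + 1), other scalings, filters and fits, and each library left out in turn. Libraries 3 and 4 are the eya-GAL4 unsorted ones, as numbered in the table header, whereas the sample titles number them 1 and 2. Which column is which titled library could not be told, so they were paired with no sorted library. Intervals on counts cover counting error only. Positions and exons come from the dm6 reference annotation, and the deposited length equals the longest transcript for all 5 genes.

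The 5 genes, the lists and the tests were chosen with earlier results of these data known. Text names the 5 genes, at most 4 called genes of smallest p per list and comparison, and the 3 genes most like each regulator. CG11145, lncRNA:CR44202, Optix, maf-S, zfh1, chinmo, Fas3, the list genes named without tj-GAL4 unsorted replicate 2 and the single cell type markers were named after their values were seen.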

Additional observations from a re-analysis of the deposited data

How the results depend on the processing

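Of 155 log2 fold changes of the 5 genes under other settings, 133 kept direction and side of the threshold, and of 200 with a library left out, 180 did. Where leaving out a library leaves a group with 1, that library is assumed to vary like the other groups. In the tj-GAL4 comparison 4 of the 5 genes were called, and 2 (tj and Six4) with the compared groups alone. All genes called there were 1428, against 2530 with DESeq2, 589 and 572 with limma on log2(RPM + 1) and log2(RPM + 0.1), and 257 with the compared groups alone. Under limma so was not called there (adjusted p = 0.27 and 0.26). In the eya-GAL4 comparison the 5 calls became 1 (Six4) and 2 (Six4 and tj) under limma, and the 6028 calls of all genes 2247 and 2684. Between the sorted groups, 1 of the 5 was called lower with DESeq2 (Sox100B), and 1 lower (Sox100B) and 1 higher (tj) with the compared groups alone. All genes called there were 14, against 211 with DESeq2, 46 without the filter, 26 and 35 under limma and 1275 with the compared groups alone. Between the unsorted groups they were 9, against 16 with DESeq2's size factors in edgeR, 388 with DESeq2, 48 without the filter, 171 and 138 under limma and 0 with the compared groups alone. In the interaction they were 0, against 313 with DESeq2, 1 without the filter and 51 and 39 under limma. Signs turned under limma for so (0.43 and 0.45, from -0.07) and Six4 (0.20 and 0.21, from -0.28) between the sorted groups and for so in the interaction (0.17 and 0.15, from -0.48), and for Sox100B between the unsorted groups (-0.03 under limma on log2(RPM + 0.1) and -0.06 with the compared groups alone, from 0.05). The cause was not tested.

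With 1 library left out, the 5 genes gave 2 to 4 calls in the tj-GAL4 comparison (all genes 277 to 4462) and 3 to 5 in the eya-GAL4 comparison (1379 to 8399). Between the sorted groups 0 to 1 of the 5 was called lower (all genes 0 to 740), and the log2 difference ran from -0.08 to 0.51 for eya and -0.24 to 0.05 for so. Between the unsorted groups 0 to 1 was called lower (all genes 0 to 3925), and the difference ran from -0.57 to 0.07 for tj, -0.03 to 0.73 for so and -0.28 to 0.24 for Sox100B. In the interaction 0 to 1 was called higher (all genes 0 to 4195).

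The replicate numbers did not pair the libraries, as deviations of same-numbered tj-GAL4 libraries correlated at -0.351 and those of the sorted groups at 0.0291. With the replicate block, 4 of the 5 genes were called in the tj-GAL4 comparison (all genes 1190) and 0 between the sorted groups (all genes 0). A crossed pairing, chosen after seeing the data, gave 2637 calls in the tj-GAL4 comparison. No paired analysis was possible because the value columns number the eya-GAL4 unsorted libraries 3 and 4 while their titles say 1 and 2, which affects the eya-GAL4 comparison, the unsorted groups and the interaction. Group levels in the deposited RPM differed from CPM by more than 1 SD in 18 of 20 cases, while the longest transcript's length changed none of 20 levels per length. Sox100B, at 8 to 81 reads, was the gene most limited by depth.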
